A study of Homo sapiens with 9 samples.

Results

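Mitochondrial ribosomal protein genes, called MRP genes here, were followed at the RNA level after depletion of TTC33 or of CCDC97 in a human cell line. Members were all rows of the deposited gene counts with the biotype protein_coding and a symbol that starts with MRPL or MRPS and a number. This gave 78 genes among 60664 gene rows, 49 with MRPL symbols, all of the large subunit, and 29 with MRPS symbols, of which 26 belong to the small subunit, MRPS18A and MRPS30 to the large subunit and MRPS36 to another complex. Of the 78 members, 77 had enough counts to be tested together with 18299 genes in all, and MRPL53 did not. The cells were HEK293Flip-In T-Rex, an established line derived from human embryonic kidney 293 cells that takes up a transgene at a fixed site and switches it on with tetracycline. Control cells carried no microRNA, the CCDC97 knock-down cells carried a tetracycline-inducible microRNA against CCDC97 (miCCDC97), and the TTC33 knock-down cells carried one against TTC33 (miTTC33). Each of the 3 groups had 3 libraries, and cells of every group, controls included, received tetracycline at 100 ng/ml for 3 days and were near confluency at the end of it. Against control, effects of depletion cannot be told apart from differences between lines or from effects of carrying a microRNA. The labels do not say whether each line was 1 clone, nor whether the 3 libraries of a group came from different cultures. The spread behind every p-value is that between these libraries, and it may be technical.

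The mitochondrial ribosome makes the few proteins that are encoded in mitochondrial DNA, all of them subunits of the respiratory chain and the ATP synthase. Its RNAs come from mitochondrial DNA, but all of its proteins are encoded by nuclear genes, translated in the cytosol and imported. Some have a counterpart in bacterial ribosomes, and others are specific to mitochondria.

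The targeted genes were checked first, in CPM (counts per 1000000 gene counts, with library sizes scaled by edgeR's TMM factors). TTC33 was at 37.7, 37.1 and 38.6 CPM in the control libraries and at 9.67, 6.41 and 6.16 CPM in the TTC33 knock-down. CCDC97 was at 60.6, 60.1 and 59.5 CPM in the control libraries and at 15.85, 15.3 and 15.7 CPM in the CCDC97 knock-down. CCDC97 was also higher in the TTC33 knock-down than in control, at 65.1, 81.3 and 95.8 CPM (log2 fold change 0.43, edgeR adjusted p = 0.0371). Libraries held 21764203 to 36110891 counts assigned to genes. The line's marker genes VIM (mean 615.5 CPM in controls), LIN28B (169.5 CPM), CDH2 (146.4 CPM) and KRT8 (123.2 CPM) were abundant, and KRT18 (78.0 CPM) and NEFL (187.6 CPM) were present, while PAX2 and NEFM were low. Of 8 markers of other cell types, INS and HBB had no count in any library, CD3E, PTPRC, PECAM1, ALB and MYH7 reached at most 0.212 CPM and VWF reached 1.04 CPM. In both knock-downs the library numbered 1 differed from those numbered 2 and 3 in how its levels followed GC content, and counts of members past the threshold are therefore given with and without these 2 libraries. Medians by subunit, motif and gene list are given with all libraries. In bulk RNA, fewer cells of one kind and less RNA per cell cannot be told apart.

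Together the 78 members took 0.401% to 0.438% of all gene counts, with the highest share in CCDC97 knock-down replicate 2 and the lowest in TTC33 knock-down replicate 1. The control libraries were at 0.410%, 0.408% and 0.411%, and both knock-downs spanned that range. Members lay on 21 chromosomes, with 8 each on chromosomes 1, 2 and 17. Annotated pseudogenes of MRP genes filled 79 further rows, of which 26 had a count, and these summed to 0.152% to 0.199% of the members' counts in a library. MRPL45P2 had 7.48% of the counts of MRPL45 and MRPS31P5 had 3.48% of those of MRPS31, so these 2 members carry some uncertainty from shared sequence.

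Levels differed widely between members in control cells. Per kilobase of exon, MRPS34, a mitochondria-specific protein of the small subunit, was highest at 107.7 ± 5.29 CPM per kb (SD, n = 3). MRPL51 at 66.7 ± 3.82 and MRPL37 at 62.95 ± 1.37 CPM per kb, both of the large subunit, came next, and these 2 differed by less than their joint spread. At the other end, MRPL38 had 0.841 ± 0.146 and MRPS24 had 0.235 ± 0.00704 CPM per kb. The order depended on the length used. Per kilobase of the longest transcript MRPL37 ranked 2 (101.4 CPM per kb), MRPL3 ranked 3 (97.46) and MRPL51 ranked 4 (83.77). By that length MRPL46 (1.248) lay below MRPL38 (1.632). MRPL53 had no count in any of the 9 libraries. A count of 0 allows up to 3 counts, or 0.0831 CPM in the deepest and 0.138 CPM in the shallowest library.

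The low members shared a feature of the annotation. MRPL53, MRPS24, MRPS28, MRPL2, MRPL38 and MRPS17 averaged under 5 CPM over all libraries, and all 6 shared at least 10% of their exon bases with another gene in GENCODE release 29 (GRCh38). Of the 72 other members, 19 did. MRPL53 shared 45.2% with CCDC142, MRPL38 shared 37.5% with AC087289.3, MRPS28 shared 35.8% with AC036214.3, MRPS24 shared 23.2% with the read-through gene URGCP-MRPS24 and MRPS17 shared 21.8% with AC092647.5, each on the same strand. MRPL2 shared 14.7% with KLC4 on the other strand. The annotation release behind the deposited counts is not stated in the labels, so these overlaps may differ from those at counting. Sharing was not confined to low members, since MRPL12 shared 68.2% with AC139530.2 and was at 13.9 ± 0.93 CPM. Reads that fit more than 1 gene may be left out by a counter, and whether that set the low levels was not tested.

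Promoter sequences from RefSeq (GRCh38.p14, 250 bases before to 50 after the gene start, first listed start) matched 69 of the 78 members by symbol. Factors of the ETS family and YY1 are known regulators of nuclear genes for mitochondrial proteins, and their short motifs were searched on both strands. The ETS motif CCGGAAG was in 29 of 69 members (42.03%) and in 14.23% of 15842 promoters of protein-coding genes. The YY1 motif AAGATGGC was in 20 members (28.99%) and in 3.91% of those promoters. Those promoters were not limited to genes with enough counts to be tested here, and a comparison among tested genes was not made. The NRF1 motif was in 1 member (1.45%, against 1.75%), the CCAAT box in 28.99% against 36.35% and TATAAA in 2.9% against 9.63%. NRF1 was searched in only 1 exact spelling, which is longer than the ETS and YY1 motifs. Sites with other letters were not counted, so its share does not show that members lack NRF1 sites. The last 3 letters of the ETS motif are the first 3 of the YY1 motif, so matches to both can overlap. Windows of 30 bases around the first match are shown for members that passed the test in a comparison given further on, in the gene's orientation, with whole matches in capitals.
MRPS22 (ETS, chr3:139343896-139343925, + strand): tctataagggcCCGGAAGaCTTCCGGccct
MRPL33 (ETS, chr2:27771700-27771729, + strand): cgggccgtgccCCGGAAGcagttgttgttg
MRPL51 (ETS, chr12:6493363-6493392, - strand): gcgctccaaaaCTTCCGGcaggcggaccgg
MRPL3 (ETS, chr3:131502985-131503014, - strand): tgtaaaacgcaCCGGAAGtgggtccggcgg
MRPS23 (ETS, chr17:57850040-57850069, - strand): tggagcagccgCTTCCGGttccggtagcag
MRPL51 (YY1, chr12:6493223-6493252, - strand): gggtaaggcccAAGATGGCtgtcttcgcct
MRPS27 (YY1, chr5:72320206-72320235, - strand): tggtacgctccAAGATGGCtgcctccatag
MRPL32 (YY1, chr7:42932143-42932172, + strand): acccgcgctccGCCATCTTtacccgaagag

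In MRPS22 a match on each strand lay in the same window, 1 base apart, and the promoter held 3 matches in all. Matches to both motifs lay near the start: a match fell within 40 bases before to 50 after it in 24 of the 29 members with the ETS motif and in 16 of the 20 with the YY1 motif. A match lay wholly before the start in 23 of the 29 and in 5 of the 20. In 12 of the 20 members with a YY1 match the ATG inside the motif was an annotated start codon, as in MRPS27, and this was so for 245 (39.6%) of the 619 promoters with the motif. MRPL1, MRPL57, MRPL44 and MRPS9 had neither motif in this window. MRPL2 and MRPL13, which also passed in a comparison, had no promoter entry and were not searched. A match is a description of the letters and shows no binding.

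After depletion of TTC33, 2 MRP genes rose against control and none fell. MRPL2, a core protein of the large subunit with a bacterial counterpart, rose 1.68-fold, and MRPL57, a mitochondria-specific protein of the large subunit, rose 1.22-fold. These 2 of 77 are 2.6% of the members tested, where 11.9% of all genes passed the threshold (edgeR's quasi-likelihood test, Benjamini-Hochberg adjusted p under 0.05), 6.5% upwards and 5.44% downwards. By DESeq2's Wald test 3 members were higher and 2 (MRPL42 and MRPS30) lower, where 18.5% of all genes passed, 9.33% upwards and 9.19% downwards. The median log2 fold change over the 77 members was 0.06, beside 0.0045 over all genes tested, and 45 of the 77 were above 0.

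MRPL2 was at 2.13, 2.34 and 2.82 CPM in the control libraries and at 3.18, 4.85 and 4.21 CPM in the TTC33 knock-down (log2 fold change 0.75 ± 0.19 SE, edgeR adjusted p = 0.0287). The groups did not overlap, and replicate 1 was the lowest of the knock-down libraries. KLC4, which shares exon bases with MRPL2 on the opposite strand, had a log2 fold change of 0.31 (edgeR adjusted p = 0.0784), and whether its reads entered the MRPL2 counts was not tested. MRPL57 was at 29.85, 31.7 and 32.0 CPM in control and at 34.1, 40.7 and 39.55 CPM in the knock-down (0.29 ± 0.09, edgeR adjusted p = 0.0494). Here too the lowest knock-down library was replicate 1, and it lay above every control library. Both calls were lost without control replicate 1, 2 or 3 (2.96%, 3.05% and 3.67% of all genes passed) and without TTC33 knock-down replicate 2 or 3 (3.46% and 3.73%). The largest edgeR adjusted p without 1 library was 0.126 for MRPL2 and 0.189 for MRPL57, whose call was also lost without CCDC97 knock-down replicate 2 or 3. MRPL2 lies on chromosome 6 (43054029 to 43059806, minus strand) and MRPL57 on chromosome 13 (21176645 to 21179084, plus strand, GRCh38).

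**Figure D1:**
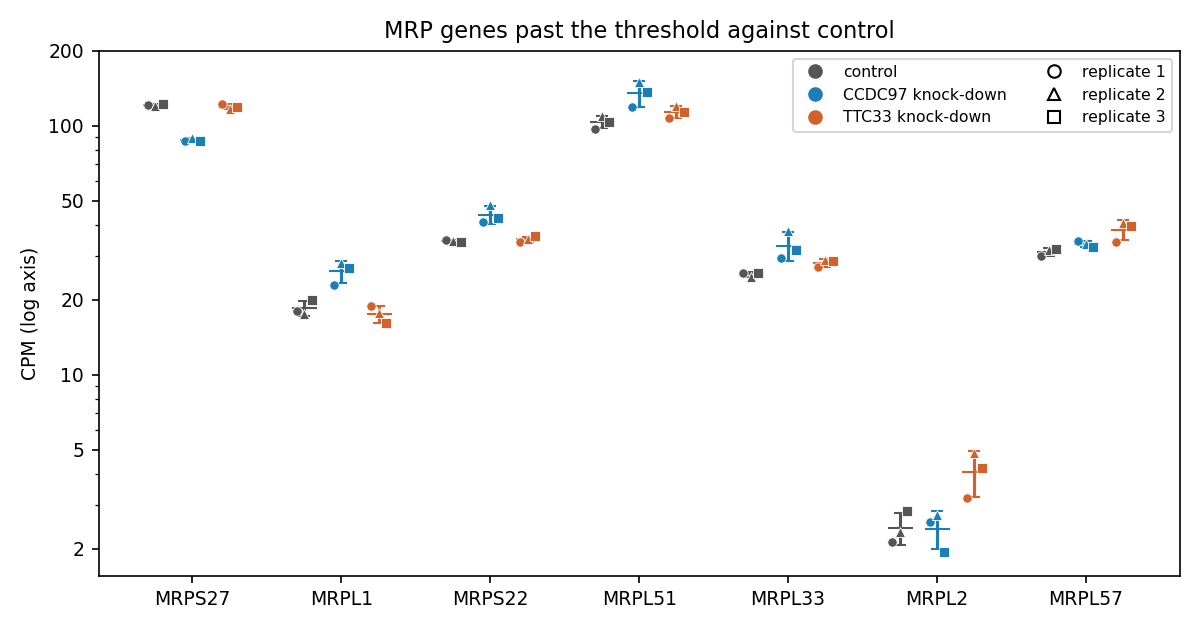
CPM on a log axis of the 7 MRP genes past the threshold against control, with 3 libraries per group as points (shape gives the replicate), the mean as a horizontal tick and the SD as a bar. MRPS27 is lower in the 3 CCDC97 knock-down libraries (86.6 to 89.1 CPM) than in the other 6, and MRPL2 lies between 3.18 and 4.85 CPM in the TTC33 knock-down.

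The members with the most extreme values after TTC33 depletion did not all pass. MRPL41, a large subunit protein whose transcript has the highest GC content of the members (71.95%), was at 27.0, 27.9 and 30.03 CPM in control and at 27.2, 44.7 and 43.9 CPM in the knock-down (log2 fold change 0.45 ± 0.18, edgeR adjusted p = 0.116). MRPL12, the stalk protein that contacts translation factors, was at 12.85, 14.7 and 14.1 CPM in control and at 13.9, 20.9 and 20.3 CPM in the knock-down (0.40 ± 0.19, edgeR adjusted p = 0.178). In both genes replicate 1 lay within the control range and replicates 2 and 3 above it. MRPL42, of the large subunit, differed in the other direction in the same libraries, with 260.1, 260.2 and 256.8 CPM in control and 246.8, 155.5 and 157.2 CPM in the knock-down (-0.47 ± 0.17, edgeR adjusted p = 0.0894). MRPS24 and MRPS28 had log2 fold changes of -0.62 ± 0.30 and -0.39 ± 0.24 (edgeR adjusted p = 0.178 and 0.288), at levels below 0.7 and 2.5 CPM.

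Without replicate 1 of the TTC33 knock-down 26 members were higher and 6 lower (34.9% of all genes passed, 17.2% upwards and 17.7% downwards), and without replicate 1 of both knock-downs 34 were higher and 15 lower (48.7% of all genes passed, 24.5% upwards and 24.1% downwards). The 6 that fell in the first of these were MRPL19, MRPL42, MRPS10, MRPS18B, MRPS23 and MRPS30. All 3 knock-down libraries lay above all 3 control libraries for 12 members (15.6%, against 19% of all genes) and below them for 13 (16.9%, against 17.8%).

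**Figure D2:**
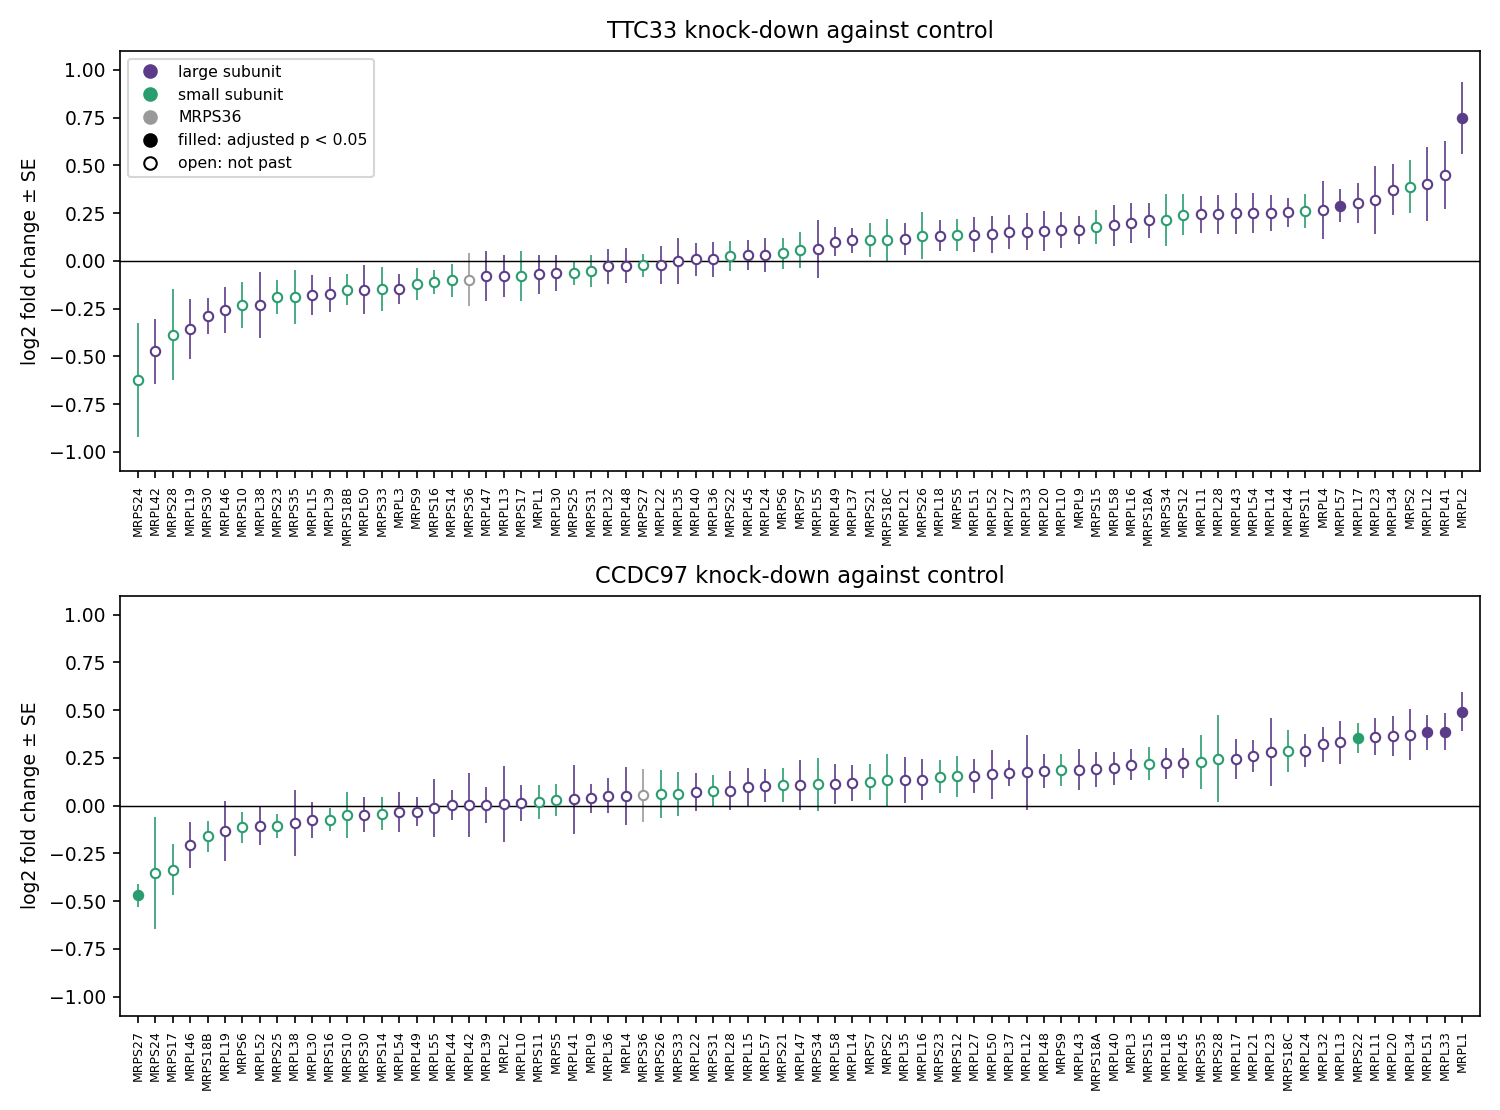
Log2 fold change against control with its SE for 77 MRP genes, ordered by value in each knock-down and coloured by subunit, with genes past the threshold filled. After TTC33 depletion MRPL2 and MRPL57 are filled, and after CCDC97 depletion MRPS27 at the low end and MRPL1, MRPL33, MRPL51 and MRPS22 at the high end.

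After depletion of CCDC97, 4 MRP genes rose and 1 fell against control. MRPS27, a small subunit protein with pentatricopeptide repeats, fell to 72.2% of its control level. MRPL1, the protein of the mobile stalk next to the tRNA exit site, rose 1.41-fold, MRPL33 and MRPL51 of the large subunit rose 1.31-fold and 1.30-fold, and MRPS22, a mitochondria-specific small subunit protein, rose 1.28-fold. These 5 of 77 are 6.49% of the members tested, where 4.56% of all genes passed the same test, 2.07% upwards and 2.49% downwards. With genes filtered at a mean of 5 CPM, 5 of 72 members (6.94%) and 7.08% of all genes passed. Upwards these shares were 5.56% and 2.76%, and downwards 1.39% and 4.32%. The median over the 77 members was 0.11, beside 0.0008 over all genes, and 59 of the 77 were above 0, against 50.14% of all genes. Replicate 2 carried much of this. Per library, 46, 63 and 48 of the 77 lay above the control mean in CCDC97 knock-down replicates 1, 2 and 3. Without replicate 2 of this knock-down the median was 0.07 and 44 of the 77 were above 0.

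MRPS27 was at 121.6, 120.0 and 122.2 CPM in the control libraries and at 86.6, 89.1 and 87.05 CPM in the CCDC97 knock-down (log2 fold change -0.47 ± 0.06, edgeR adjusted p = 0.0019). The TTC33 knock-down libraries, at 122.1, 117.1 and 118.5 CPM, were near the controls. Replicates lay close together in each group, and the 3 CCDC97 knock-down libraries were the lowest of all 9. The call held in each of the 9 fits without 1 library, in which its log2 fold change ranged from -0.49 to -0.46. The gene lies on the minus strand of chromosome 5 (72219409 to 72320646, GRCh38), and PTCD2, which shares 2.9% of its exon bases on the other strand, had a log2 fold change of -0.07 (edgeR adjusted p = 0.694).

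MRPL1 was at 18.0, 17.5 and 20.0 CPM in control and at 23.0, 28.01 and 26.9 CPM in the CCDC97 knock-down (0.49 ± 0.10, edgeR adjusted p = 0.0241). MRPS22 was at 34.7, 34.3 and 34.05 CPM in control and at 41.1, 48.1 and 42.6 CPM in the knock-down (0.36 ± 0.08, edgeR adjusted p = 0.0294). In both genes the 3 knock-down libraries were the highest of all 9, with replicate 2 on top. MRPL51 was at 97.4, 109.3 and 103.5 CPM in control and at 118.5, 149.8 and 136.3 CPM in the knock-down (0.38 ± 0.09, edgeR adjusted p = 0.0385). MRPL33 was at 25.5, 24.7 and 25.6 CPM in control and at 29.3, 37.9 and 31.8 CPM in the knock-down (0.39 ± 0.10, edgeR adjusted p = 0.0486). Neither gene's groups overlapped, and replicate 1 was the lowest knock-down library in both. COPB2, which shares 1.6% of the exon bases of MRPS22 on the other strand, rose as well (0.32, edgeR adjusted p = 0.0405). NCAPD2, which shares 31.3% of those of MRPL51 on the other strand, had a log2 fold change of -0.10 (edgeR adjusted p = 0.342). BABAM2, which shares 21.1% of those of MRPL33 on the same strand, had 0.07 (edgeR adjusted p = 0.684). Without control replicate 1, 2 or 3 (1.09%, 1.17% and 1.29% of all genes passed), and also when replicate 2 or 3 of the CCDC97 knock-down was omitted (1.37% and 1.76%), MRPS27 was the 1 member past the threshold and the 4 higher genes were not. Without TTC33 knock-down replicate 2 or 3, MRPL33 and MRPL51 did not pass, nor MRPS22 without replicate 2. The largest edgeR adjusted p without 1 library lay between 0.132 for MRPL1 and 0.2 for MRPL33. In GRCh38, MRPL1 lies on chromosome 4 (77862520 to 77952790, plus strand), MRPS22 on chromosome 3 (139005806 to 139357223, plus strand), MRPL51 on chromosome 12 (6491886 to 6493841, minus strand) and MRPL33 on chromosome 2 (27771717 to 27988087, plus strand).

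Without replicate 1 of the CCDC97 knock-down 11 members were higher and 2 lower (9.88% of all genes passed, 5.08% upwards and 4.8% downwards), and without replicate 1 of both knock-downs 32 were higher and 2 lower (35.6% of all genes passed, 18.7% upwards and 16.9% downwards). The other gene that fell in both was MRPS17, a small subunit protein with a bacterial counterpart, at 4.12, 4.46 and 4.38 CPM in control and 4.07, 3.07 and 3.10 CPM in the knock-down. All 3 knock-down libraries lay above all 3 controls for 23 members (29.9%, against 14.9% of all genes) and below them for 5 (6.49%, against 15%). The 5 were MRPL46, MRPS17, MRPS18B, MRPS25 and MRPS27. MRPS24 and MRPS17, with the lowest fold changes after MRPS27, did not pass with all libraries (-0.353 ± 0.293 and -0.335 ± 0.134, edgeR adjusted p = 0.544 and 0.183).

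The relation of members' levels to the GC content of their transcripts varied between knock-down libraries, with a Spearman's rho from -0.33 in CCDC97 knock-down replicate 3 to 0.735 in TTC33 knock-down replicate 2. Among the 26 members with the lowest GC content (33.5% to 43.76%), median log2 ratios to the control mean were 0.02, -0.14 and -0.18 in TTC33 knock-down replicates 1, 2 and 3. Among the 25 with the highest (52.15% to 71.95%) they were -0.001, 0.33 and 0.30. Replicates 2 and 3 of the TTC33 knock-down thus had lower levels of AT-rich and higher levels of GC-rich members, and replicate 1 was near control in both. All genes tested in the same GC ranges had medians of 0.03, -0.24 and -0.27 in the low range and -0.035, 0.235 and 0.26 in the high range. Across the 77 members, which share their libraries and are not independent, Spearman's rho between GC content and the change after TTC33 depletion was 0.656 (0.46 across all genes). The part of GC content in the results of single members was not tested beyond the correction given further on.

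In the CCDC97 knock-down the same sets gave -0.14, 0.28 and 0.09 for AT-rich members in replicates 1, 2 and 3, and 0.25, 0.18 and 0.01 for GC-rich members. All genes of these ranges had -0.08, 0.125 and 0.13, and 0.09, -0.17 and -0.16. GC-rich members therefore had medians above those of all genes of their GC range in each of the 3 CCDC97 knock-down libraries. The same held in the TTC33 knock-down libraries (-0.001, 0.333 and 0.304 against -0.035, 0.235 and 0.262). It also held in control replicate 3 (0.056 against 0.023), but not in control replicates 1 and 2 (-0.036 and -0.026 against -0.008 and -0.014). No test was run on these differences. Spearman's rho with GC content was 0.592, -0.208 and -0.33 across the members in replicates 1, 2 and 3.

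**Figure D3:**
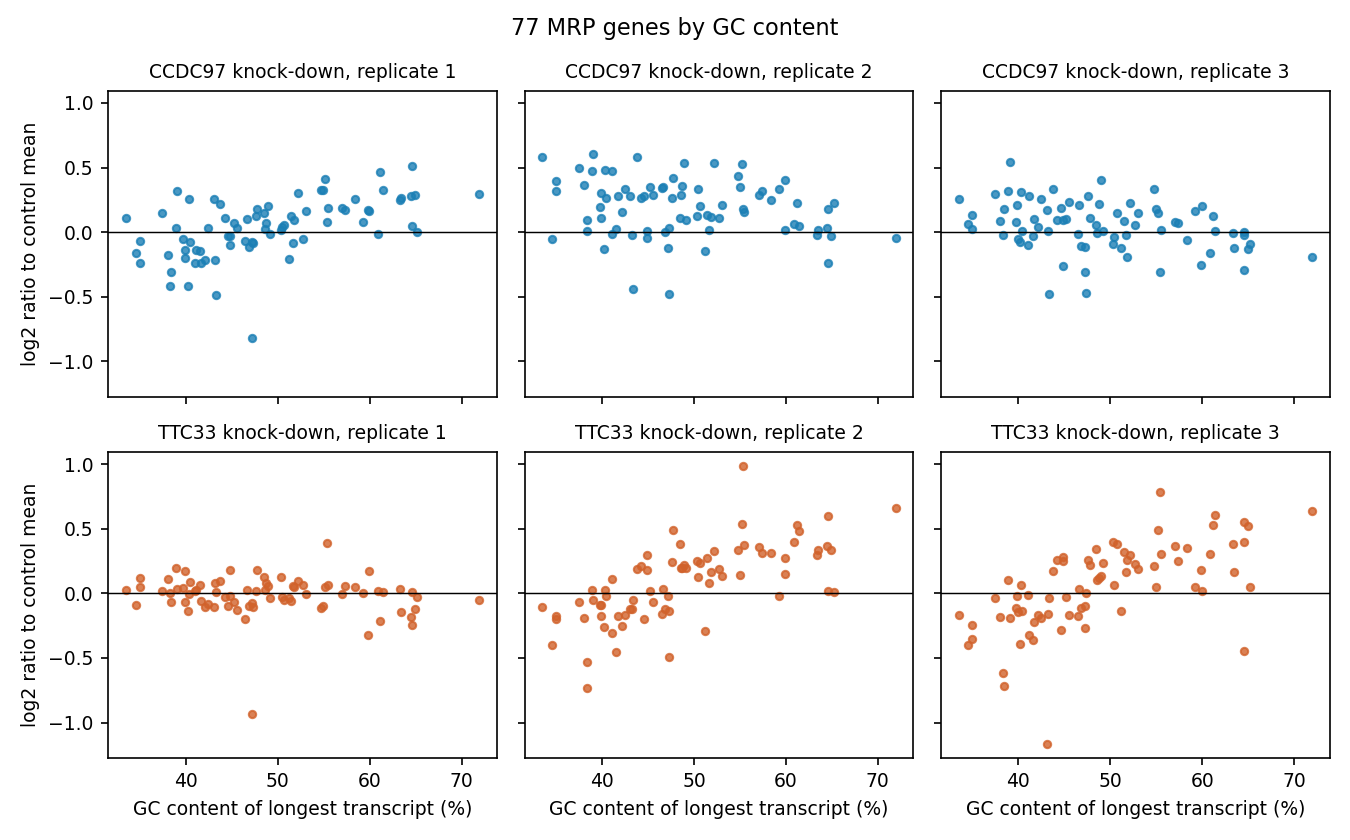
Log2 ratio of each of 77 MRP genes to the control mean (prior count 2) against the GC content of its longest transcript, in each of the 6 knock-down libraries. The points slope upwards in TTC33 knock-down replicates 2 and 3 and in CCDC97 knock-down replicate 1, downwards in CCDC97 knock-down replicates 2 and 3, and lie nearly flat in TTC33 knock-down replicate 1.

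**Figure D4:**
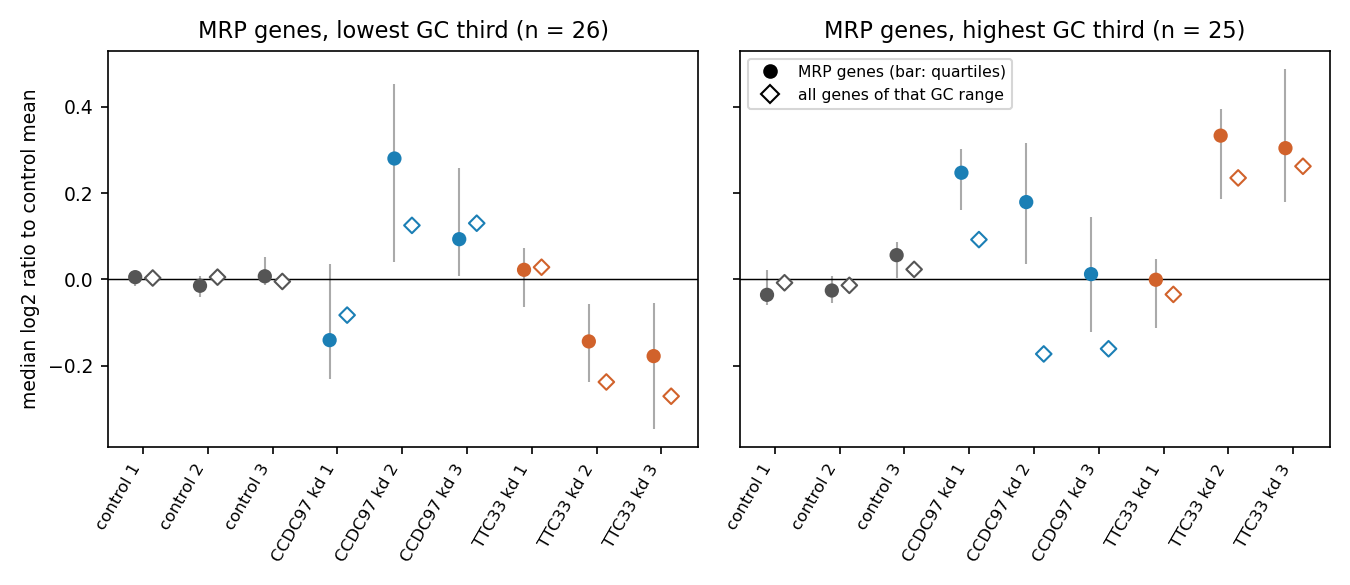
Median log2 ratio to the control mean per library for MRP genes (filled, bars span the quartiles) and for all genes of the same GC range (open diamonds), for the 26 members lowest in GC content (left) and the 25 highest (right). On the right the members lie above all genes in the 3 libraries of each knock-down and in control replicate 3.

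After a correction for per-library trends with GC content and length, fitted over all genes, 12 members rose and MRPL42 fell after TTC33 depletion (27.2% of all genes passed, 13.1% upwards and 14.1% downwards). The 12 were MRPL2, MRPL13, MRPL17, MRPL32, MRPL33, MRPL34, MRPL44, MRPL57, MRPS2, MRPS11, MRPS18C and MRPS36, of which MRPL13 (-0.08 before, 0.39 after), MRPL32 and MRPS36 were below 0 before the correction. After CCDC97 depletion 26 members rose, or 33.8%, against 11.3% of all genes, and MRPL19 and MRPS27 fell, where 8.31% of all genes did (19.6% in either direction). Among the 26 were MRPL1 (0.41), MRPL20 (0.41), MRPL24 (0.32), MRPL11 (0.38) and MRPS34 (0.25), and MRPS27 stayed at -0.49. The corrected median over the members was 0.08 after TTC33 depletion and 0.13 after CCDC97 depletion, beside -0.0058 and 0.0201 over all genes. Per library, the corrected medians in the CCDC97 knock-down were 0.04, 0.22 and 0.09, so replicate 2 carried the most. The correction left no relation with GC content over all genes, but it did leave one among the members. Their Spearman's rho with GC content went from 0.041 to 0.387 after CCDC97 depletion, from 0.656 to -0.166 after TTC33 depletion and from 0.574 to -0.449 between the knock-downs, beside 0.006, 0.008 and 0.009 over all genes after it. After CCDC97 depletion the corrected fold changes were thus higher in GC-rich members, and the part of the correction itself in the count of 26 was not tested.

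By subunit, the 50 tested proteins of the large subunit had a median log2 fold change of 0.12 after TTC33 depletion, with 33 above 0, and the 26 of the small subunit had -0.04, with 12 above 0. Both genes that rose were in the large subunit. The small subunit genes also had lower GC content (median 47.03% against 49.82%), and its part in the difference was not tested. After CCDC97 depletion the medians were 0.13 for the large subunit (41 of 50 above 0) and 0.07 for the small subunit (17 of 26 above 0). Large subunit proteins with a bacterial counterpart had 27 of 30 above 0 and a median of 0.15, and mitochondria-specific ones had 14 of 20 and 0.07. These counts leaned on CCDC97 knock-down replicate 2. In replicates 1, 2 and 3, 34, 42 and 35 of the 50 large subunit genes lay above the control mean. Of the 26 small subunit genes, 12, 20 and 12 did.

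The proteins of the stalk and its base were described whatever their values. MRPL10, which anchors the stalk, had log2 fold changes of 0.16 ± 0.09 after TTC33 depletion and 0.015 ± 0.095 after CCDC97 depletion (edgeR adjusted p = 0.269 and 0.952). MRPL11, at the stalk base, was at 34.05, 37.0 and 35.45 CPM in control, at 43.7, 51.5 and 41.6 CPM in the CCDC97 knock-down and at 37.9, 44.45 and 43.7 CPM in the TTC33 knock-down. Both knock-downs lay above the controls, and neither passed (0.36 ± 0.10, edgeR adjusted p = 0.0618, and 0.24 ± 0.10, edgeR adjusted p = 0.121).

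Among other large subunit proteins, MRPL44, which has a ribonuclease III fold, was at 31.2, 31.3 and 31.9 CPM in control and 35.7, 38.7 and 38.2 CPM in the TTC33 knock-down, without overlap (0.25 ± 0.08, edgeR adjusted p = 0.055). MRPL45, at the exit of the peptide tunnel, had 0.03 ± 0.08 and 0.22 ± 0.08 after TTC33 and CCDC97 depletion, and MRPL58, a peptidyl-tRNA hydrolase built into the large subunit, had 0.185 ± 0.105 and 0.11 ± 0.105. MRPL4 had 0.27 ± 0.15 and 0.05 ± 0.15. None of MRPL45, MRPL58 and MRPL4 passed the threshold, the smallest edgeR adjusted p being 0.133 for MRPL45 after CCDC97 depletion. MRPS30, which despite its symbol belongs to the large subunit, was at 134.4, 135.3 and 134.4 CPM in control and 126.3, 102.2 and 102.0 CPM in the TTC33 knock-down (-0.29 ± 0.09, edgeR adjusted p = 0.064).

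In the small subunit, MRPS12, a protein of the decoding centre, had log2 fold changes of 0.24 ± 0.11 and 0.15 ± 0.11 after TTC33 and CCDC97 depletion, and MRPS2 had 0.39 ± 0.14 and 0.13 ± 0.14. MRPS16 was at 105.8, 106.4 and 103.8 CPM in control, 97.4, 105.2 and 97.8 CPM in the CCDC97 knock-down and 98.2, 96.7 and 97.5 CPM in the TTC33 knock-down. None of these 3 passed in either comparison. Of the MRPS18 paralogues, which occupy different places in the ribosome, MRPS18A of the large subunit had 0.21 ± 0.09 and 0.19 ± 0.09, MRPS18B had -0.15 ± 0.08 and -0.16 ± 0.08, and MRPS18C had 0.11 ± 0.11 and 0.29 ± 0.11, and none passed. MRPS36, which acts as an adaptor of the 2-oxoglutarate dehydrogenase complex, had -0.10 ± 0.14 and 0.05 ± 0.14.

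The 2 knock-downs were also compared with each other, in the fit over all 9 libraries, where the controls enter the estimate of the spread. Here 3 members were higher after TTC33 than after CCDC97 depletion and 7 were lower, 13% of the members, where 21.5% of all genes passed (11.3% higher and 10.2% lower). MRPS27 (0.45 ± 0.06, edgeR adjusted p = 0.00089), MRPL2 (0.74 ± 0.19) and MRPL44 (0.25 ± 0.08) were higher. MRPL1 had the largest difference of those lower, -0.56 ± 0.10 (edgeR adjusted p = 0.0048), at 18.8, 17.75 and 16.1 CPM after TTC33 depletion. MRPL3, a core large subunit protein, was at 156.7, 148.3 and 145.6 CPM after TTC33 depletion and 170.4, 209.5 and 199.0 CPM after CCDC97 depletion, on either side of the controls at 162.7, 164.5 and 171.6 CPM (-0.36 ± 0.08, edgeR adjusted p = 0.0116). The other 5 that were lower, MRPS22, MRPS23, MRPL32, MRPL13 and MRPS9, had log2 differences between -0.41 and -0.31. MRPS27 and MRPL1 passed in all 9 fits without 1 library, whereas MRPL44 passed in 1 of them and was lost without any 1 control library. With only the 6 knock-down libraries in the fit, MRPS27 and MRPL1 were the 2 members past the threshold (8.4% of all genes passed). Without replicate 1 of both knock-downs all 10 passed, among 23 members higher and 31 lower (55.2% of all genes passed, 27.5% higher and 27.8% lower).

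Other genes of the mitochondrial translation system were taken from 7 lists. In the fit used for all of them, 11.9% of all genes passed after TTC33 depletion and 4.56% after CCDC97 depletion. Of 5 mitoribosome proteins with other symbols, DAP3, a GTP-binding protein of the small subunit, fell after TTC33 depletion from 92.5, 92.4 and 94.7 CPM to 80.5, 78.2 and 75.5 CPM (-0.26 ± 0.07, edgeR adjusted p = 0.0435). GADD45GIP1, a large subunit protein with a GC content of 60.27%, rose (0.68 ± 0.20, edgeR adjusted p = 0.0494), with 48.3, 44.9 and 53.0 CPM in control and 50.7, 96.3 and 87.1 CPM in the knock-down. Its replicate 1 lay within the control range. None of the 5 passed after CCDC97 depletion, and their median was 0.17.

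Of 29 tested assembly and rRNA modification genes, TRUB2, a pseudouridine synthase, rose and YBEY, an endoribonuclease, fell after TTC33 depletion (0.39 ± 0.10 and -0.35 ± 0.10). YBEY alone passed after CCDC97 depletion (-0.605 ± 0.098, edgeR adjusted p = 0.00675), at 19.7, 18.8 and 20.9 CPM in control and 13.2, 14.1 and 11.6 CPM in the knock-down, so its libraries were below the controls in both knock-downs. Of 16 translation factors, MTFMT, which formylates the initiator methionyl-tRNA, fell after TTC33 depletion (-0.38 ± 0.08) and none passed after CCDC97 depletion. Of 22 mitochondrial aminoacyl-tRNA synthetases none passed after TTC33 depletion, where 11.9% of all genes did. After CCDC97 depletion, where 4.56% of all genes passed, LARS2 and HARS2, which charge leucine and histidine tRNAs, rose (0.36 ± 0.07 and 0.38 ± 0.08). Of 22 transcription and RNA processing genes, PRORP, the nuclease subunit of mitochondrial RNase P, fell after both (-0.49 ± 0.12 and -0.51 ± 0.12), and SLIRP, the partner of LRPPRC in mRNA stability, rose after CCDC97 depletion (0.38 ± 0.10). Of 10 nuclear regulators, MYC fell after TTC33 depletion, from 144, 139.2 and 146.2 CPM to 75.6, 93.9 and 98.3 CPM (-0.68 ± 0.12, edgeR adjusted p = 0.00606), and none passed after CCDC97 depletion. MYC after TTC33 depletion and YBEY after CCDC97 depletion passed in all 9 fits without 1 library. The other calls in these lists passed in 2 to 5 of the 9, and each was lost without any 1 control library and without replicate 2 of the knock-down concerned. DAP3 passed in 3 of the 9 (largest edgeR adjusted p = 0.146), GADD45GIP1 in 2 (0.191) and YBEY after TTC33 depletion in 4 (0.144). All of these calls passed without replicate 1 of both knock-downs.

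The mitochondrial rRNAs, partners of the MRP proteins, varied more between libraries of 1 group than between groups. MT-RNR1 was at 414.1, 13.4 and 795.7 CPM in the 3 control libraries and at 708.5, 83.7 and 6736 CPM in the CCDC97 knock-down. Neither MT-RNR1 nor MT-RNR2 passed in any of the 3 comparisons.

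**Figure D5:**
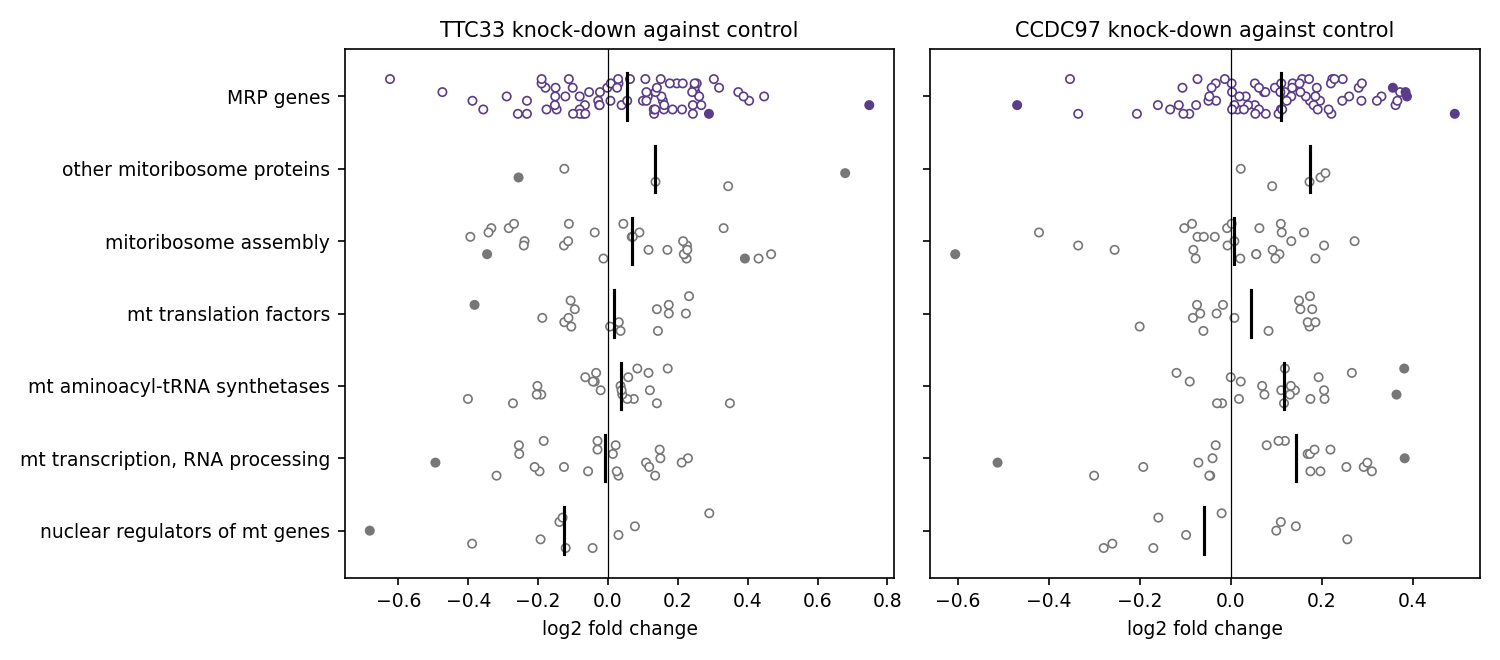
Log2 fold change against control of MRP genes (top row, purple) and of 6 lists of other genes of mitochondrial translation and its regulation, with genes past the threshold filled and the median of each list as a vertical tick. MRP genes have 2 filled points after TTC33 depletion and 5 after CCDC97 depletion, and their medians are 0.06 and 0.11.

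Motif content was set beside the fold changes. Members with the ETS motif had a median log2 fold change of 0.12 after both TTC33 and CCDC97 depletion, and members without it had 0.03 and 0.05. Members with the YY1 motif had medians of -0.03 and 0.06, and members without it had 0.12 and 0.11. These are descriptions of 68 tested members with a promoter entry, with no test.

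Neighbours that share a start region did not always move with the member. Of the members, 19 had a protein-coding gene starting on the other strand within 1000 bases. MRPL46 and MRPS11, whose starts are 34 bases apart, had log2 fold changes of -0.26 and 0.26 after TTC33 depletion, neither past the threshold (edgeR adjusted p = 0.167 and 0.082). MRPL46 was at 6.88, 6.58 and 7.36 CPM in control and 6.30, 5.79 and 5.28 CPM in the knock-down, and MRPS11 was at 32.9, 31.1 and 32.85 CPM in control and 35.3, 38.3 and 42.5 CPM in the knock-down. In each TTC33 knock-down library MRPL46 lay below and MRPS11 above all controls, and their GC contents were 40.19% and 50.33%. SKA3, which shares its start region with MRPL57, had a log2 fold change of 0.03 after TTC33 depletion (edgeR adjusted p = 0.81).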

How the data were processed

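Read counts per gene were deposited by the authors as whole-number counts in 2 files per library, and the one labelled R12 was used. Per the submitters' processing notes, Trimmomatic 0.39, HISAT2 and HTSeq 2.0.1 were used with GRCh38. Neither the annotation release nor the use of strand in counting is given in the sources used here. Rows that name no gene held 33.4% to 57.9% of the R12 counts and were left out. Libraries were scaled by TMM and genes filtered with filterByExpr, and 18299 genes were fitted over all 9 libraries with edgeR 4.0.16 (quasi-likelihood test, 6 residual degrees of freedom, Benjamini-Hochberg adjustment over all genes, threshold 0.05). The scripts were tested on simulated data. Log2 ratios per library used a prior count of 2. GC content, transcript length and exon overlap came from GENCODE release 29, and values for 18042 genes (98.6%) entered a correction by per-library trends with mgcv 1.9.3. DESeq2 1.42.0, other scalings and filters and fits without each library were alternatives. The members, gene lists and tests were chosen with earlier results of these data known, and the fit without replicate 1 of both knock-downs was chosen after seeing the data. Named genes were those past the threshold and the 3 highest and 3 lowest fold changes of each comparison with control. The 3 most and least abundant members per length and members set by role were named too. For the direct contrast the rule allowed up to 5 members in each direction, which gave the 3 that were higher and 5 of the 7 that were lower. Other members and overlapping or neighbouring genes were named after their values were seen. The assignment of members to classes was written after the values were seen.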

Additional observations from a re-analysis of the deposited data

Results flagged for a closer look

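In 10 members the change against control differed between the knock-downs, by the test of TTC33 against CCDC97 knock-down itself (edgeR's quasi-likelihood test, adjusted p under 0.05), where 21.5% of all genes passed. The log2 difference, TTC33 minus CCDC97 knock-down, was 0.445 for MRPS27, 0.74 for MRPL2 and 0.252 for MRPL44. It was -0.563 for MRPL1, -0.411 for MRPL13, -0.361 for MRPL3, -0.349 for MRPL32, -0.341 for MRPS23, -0.33 for MRPS22 and -0.308 for MRPS9. After the GC content and length correction MRPL13 had 0.067 (edgeR adjusted p = 0.726), MRPL32 had -0.035 (0.788) and MRPS22 had -0.145 (0.192), whereas the other 7 kept their direction and passed.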

How the results depend on the processing

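The fall of MRPS27 after CCDC97 depletion passed under every alternative run, leaving out each library included. Counts of members past the threshold moved with the processing, and the cause was not tested. After TTC33 depletion the count of 2 became 1 with DESeq2 size factors (11.9% of all genes passed). It was also 1 with only the 2 groups compared (11.8%) and with both count files summed (12%). With no filter on low counts it was 8, or 10.4% of the members (10.2% of all genes). DESeq2's Wald test gave 5 (18.5% of all genes). The GC content and length correction gave 13 after TTC33 depletion, 28 after CCDC97 depletion (5 before) and 23 for TTC33 against CCDC97 knock-down (10 before), where 27.2%, 19.6% and 28.4% of all genes passed. DESeq2's Wald test gave 9 after CCDC97 depletion, and only the 2 groups compared gave 2 for the direct contrast (8.66% and 8.4% of all genes). Without 1 library the counts ranged from 0 to 32 after TTC33 depletion, from 1 to 13 after CCDC97 depletion and from 2 to 27 for the direct contrast, whose median ranged from -0.0851 to 0.007. In these fits 2.96% to 34.9%, 1.09% to 10.6% and 8.17% to 41.6% of all genes passed. Without replicate 1 of both knock-downs they were 49, 34 and 54, or 54 of 77 (70.1%) in the direct contrast beside 55.2% of all genes (48.7% and 35.6% in the other comparisons). With the GC content and length correction MRPL32 after TTC33 depletion was at 0.224, MRPS36 at 0.273 and MRPL13 at 0.393, and in the direct contrast MRPL4 was at -0.194, MRPS34 at -0.262, MRPL28 at -0.182, MRPS26 at -0.256, MRPL23 at -0.281 and MRPS36 at 0.288, each past the threshold against its direction before.

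Correlations of same-numbered libraries' deviations ranged from -0.504, between the 2 knock-down libraries numbered 1, to 0.094. Those of differently numbered libraries ranged from -0.274 to 0.37. With 3 libraries per group these values cannot settle whether replicate numbers pair the samples. Fits that held the replicate number as a block passed 0, 1 and 3 members in the 3 comparisons (4.13%, 1.31% and 10.1% of all genes), and with the block and the GC content and length correction 14, 26 and 22 (25.1%, 17.7% and 26.1%). In that fit MRPS36 was at 0.274 after TTC33 depletion, and MRPL4, MRPS34 and MRPS36 were at -0.196, -0.261 and 0.293 in the direct contrast.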

Other observations

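MRPL20-AS1, a long non-coding RNA gene at the MRPL20 locus, had 10314 counts over the 9 libraries and MRPL20 had 19001, the highest of the antisense and divergent transcripts named after MRP genes. MRPL20-DT had 1138 and MRPS30-DT had 755. The second set of count files, labelled U, held 6.55% to 11.9% of the summed counts per library.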
